A study of Mus musculus with 4 samples.

Results

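The osteoblast lineage transcription factors described here are Runx1, Runx2, Sp7, Dlx3, Dlx5, Dlx6, Msx1, Msx2 and Twist1, which are 9 of the 56980 genes in the count table. They were chosen by gene symbol as known regulators of bone formation, and each symbol matched 1 row of the table. The libraries come from mesenchymal stromal cells (MSCs) of the bone marrow of 4 male wild-type C57BL/6J mice aged 14 weeks, from a colony that had been inbred in-house. A small, fixed number of cells per mouse was sorted from digested femurs as cells without the antigens CD45, Ter119, CD31 and Sca1 and with CD51 and PDGFRa, and full-length cDNA was amplified from poly(A) RNA. All 4 libraries form a single group without treatment or mutation, so no conditions were compared and the questions asked here are how high each factor was, which stood above which, and how far the mice differed.

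Bone-forming osteoblasts arise from mesenchymal progenitors under the control of a short chain of transcription factors. RUNX2 is needed to commit progenitors to the lineage, and the zinc-finger factor SP7, also called osterix, acts after it and is needed for mature osteoblasts. The homeodomain factors of the DLX and MSX families respond to BMP signals and shape the skeleton in development, and DLX factors can activate Runx2 and Sp7. TWIST1 binds RUNX2 and holds it back, and RUNX1 is best known from blood stem cells but is also used in cartilage and bone precursors.

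The libraries held between 22738604 and 43545349 counts on genes, and mice 1 and 3 had the deeper libraries. Each library detected between 16109 and 18907 genes. Counts were converted to TPM, in which the count of a gene is divided by the length of its exons and each library is scaled to 1000000, so that genes can be compared per length. Pdgfra, the gene of a sort antigen, was between 30.7 and 48.2 TPM, and Itgav, which encodes CD51, between 12.9 and 18.1 TPM. Ptprc and Pecam1, the genes of CD45 and CD31, were at most 0.264 and 0.218 TPM. Ly6a, which encodes Sca1, had 120 and 144 counts in mice 2 and 4 and at most 1 count in the others, although the sort was against Sca1. In bulk RNA, fewer cells that use a gene and less of its RNA per cell cannot be told apart, and this holds for every level below.

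Of the 9 factors, 8 had a median above 1 TPM over the 4 mice, the cutoff for expression that the study's methods give, and Msx2 did not. Over all 52125 genes with a length, 22.9% were above this cutoff. A level above 1 TPM in all 4 mice was reached by 6 of them (Sp7, Dlx5, Dlx3, Runx2, Twist1 and Runx1) and by 15.4% of all genes. The summed TPM of the 9 lay between 465 in mouse 2 and 811 in mouse 1, and Sp7 alone made up between 31.1% and 41.8% of it. By median TPM the order was Sp7, Dlx5, Dlx3, Runx2, Twist1, Runx1, Dlx6, Msx1 and Msx2, with medians from 206.5 TPM down to 0.0148 TPM. With merged exons as length, Dlx3 held the third and Runx1 the sixth place in every mouse, while the other places changed between mice. The order depends on the length used. With the longest transcript of each gene, Dlx5 came before Sp7 (medians of 207 and 178 TPM), Msx1 came before Dlx6, and Runx1 came before Twist1 in mouse 2.

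**Figure D1:**
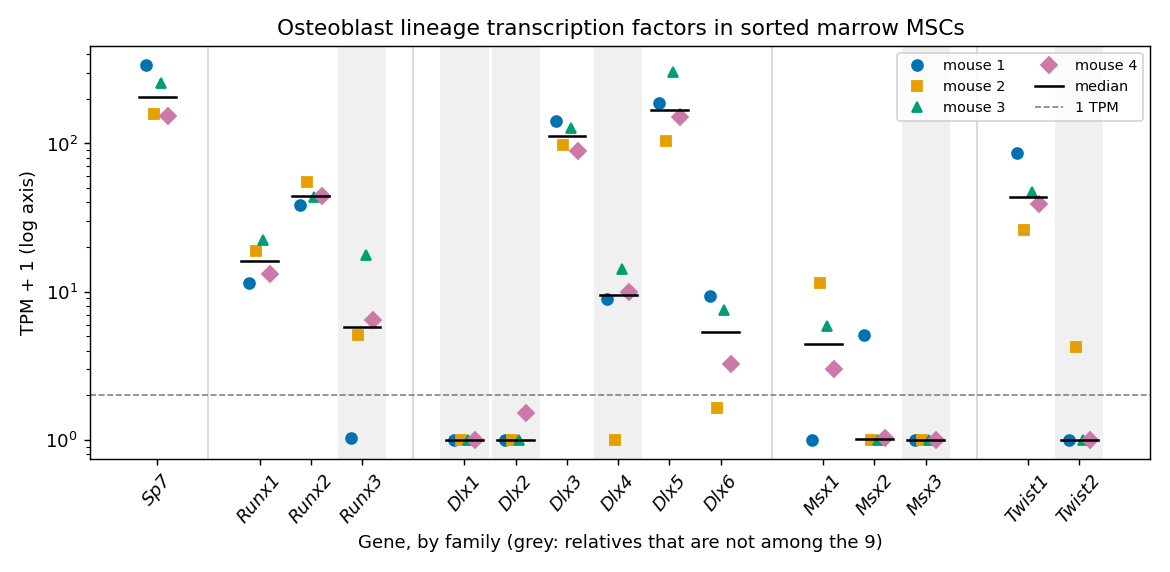
TPM + 1 on a log axis for the 9 factors and, on grey, the other genes of their families, with a point for each mouse, a bar at the median and a dashed line at 1 TPM. Sp7, Dlx5 and Dlx3 sit highest, between 88.0 and 339 TPM in all mice. Msx1, Msx2, Msx3, Runx3, Dlx1, Dlx2, Dlx4 and Twist2 each have at most 2 counts in at least 1 mouse.

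Sp7 (ENSMUSG00000060284; GRCm38 chromosome 15, from 102356606 to 102367182, minus strand) had the highest median of the 9 with merged exons as length. Mouse 1 had 20273 counts and 339 TPM, mouse 2 had 5973 and 158, mouse 3 had 14968 and 255, and mouse 4 had 5310 and 151, with a mean of 226 ± 89.2 TPM (± SD over 4 mice). Mice 1 and 3 were high and mice 2 and 4 were close together and lower. The SD was 39.5% of the mean (the coefficient of variation), where the error of counting reads alone would give 1.09%. That figure leaves out error from amplifying few cells, which 1 library per mouse cannot tell apart from differences between mice. The 667 genes within a factor of 2 of the mean of Sp7 have a median coefficient of 23.6%. Sp7 thus varied more between mice than 79.5% of genes of like level.

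Runx2 (ENSMUSG00000039153; chromosome 17, from 44495987 to 44814797, minus strand) had the lowest coefficient of variation of the 9 in TPM. It had 5816, 5281, 6459 and 3979 counts, which are 37.4, 53.7, 42.3 and 43.6 TPM in mice 1 to 4, or 44.2 ± 6.85 TPM (SD, n = 4). The highest mouse was 1.44 times the lowest, and mice 3 and 4 were nearly equal. Its coefficient of variation was 15.5%, against a median of 37.4% over 2239 genes of like level, of which 10.2% varied less. Dlx3 varied less than Runx2 when the 10 highest genes were left out of the denominator (15.2% and 20.1%) and in CPM (16.8% and 18.1%). The antisense gene Runx2os1 shares 5.87% of the exonic bases of Runx2 and had 326, 1, 182 and 68 counts, and the counting options given by the study name no strand, so reads from the shared bases cannot be assigned to a strand.

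Sp7 was higher than Runx2 in 4 of 4 mice, by 2.26 ± 0.74 in log2(TPM + 1) (mean ± SD of the differences within a mouse). The difference was larger than its spread between mice, and it was tested by flipping the signs of the 4 differences in all 16 ways (an exact permutation test, two-sided). Only 2 of the 16 sign assignments, the fewest that 4 mice allow, were as extreme, which gives an adjusted p of 0.188 by Benjamini-Hochberg over the 6 pairs compared. No pair could therefore pass 0.05 in this design. In CPM, which leave out gene length, the difference was 0.90, since Runx2 is the longer gene. The difference was 3.15 in mouse 1 and 1.54 in mouse 2, the mouse where Sp7 was low and Runx2 highest.

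Runx1 (ENSMUSG00000022952; chromosome 16, from 92601466 to 92826149, minus strand) was present in all 4 libraries at a lower level than Runx2. It had 2201, 2387, 4464 and 1515 counts, or 10.4, 17.8, 21.5 and 12.2 TPM, with a mean of 15.5 ± 5.11 TPM (SD, n = 4). Mouse 3 was highest and mouse 1 lowest. Runx2 was higher than Runx1 in 4 of 4 mice, with a difference of 1.50 ± 0.38 on the log2(TPM + 1) scale, for which 2 of 16 sign assignments were as extreme (exact test, adjusted p = 0.188). The merged exons of Runx1 are 2.05 times as long as its longest transcript, and with the length of the longest transcript the difference was 0.95 ± 0.39, still in the same direction in every mouse.

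Because Runx1 is also a blood cell gene, its values were set beside 15 blood cell markers. Their summed level was 3801, 40.8, 1302 and 280 TPM in mice 1 to 4, mostly from the haemoglobin genes Hba-a1 and Hbb-bs. Runx1 was 10.4, 17.8, 21.5 and 12.2 TPM in the same mice. It was lowest in mouse 1, which had the highest sum, and highest in mouse 3, which had the second-highest sum. Of the 15, 6 had a median above 1 TPM and 2 were above 1 TPM in every mouse, and Csf1r, Adgre1 and Itgam had 0 counts in every library. Ptprc was between 0 and 50 counts, and Spi1, a factor of myeloid cells, had 106 counts in mouse 1 and 0 in the others. Mouse 1 also had the highest Gata1, the main factor of red cell precursors, at 34.7 TPM, and the neutrophil genes Elane and S100a8 at 15.1 and 11.6 TPM. S100a9 was highest in mouse 2, at 19.6 TPM, although the sum of the markers was lowest there. The part of blood cells in the values of Runx1 was not tested.

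The start regions of both RUNX genes carry the sequence that RUNX factors bind. Windows of RefSeq from 250 bases before to 50 bases after the start of a transcript were available here for 5 of the 9 factors (6 windows, GRCm38.p6). Runx1 had 2, and Runx2, Msx1, Msx2 and Twist1 had 1 each. The letters ACCACA, searched on both strands, occur 3 times in the window of Runx2, 2 times in the distal window of Runx1 and in none of the other 4, while 16.8% of all 32817 windows hold at least 1 match and 1.81% at least 2. The 2 downstream matches belong to a stretch of 22 bases that the windows of Runx1 and Runx2 share and that no other window contains. Its surroundings are printed 5′ to 3′, with the matches in capitals, because the likeness of both genes can be read from them. The Runx1 sequence lies at chr16:92826026-92826055 and begins at base 20 of the transcript, and the Runx2 sequence at chr17:44814584-44814613, beginning at base 15, both on the minus strand.
Runx1: tcataaacaACCACAgaACCACAagttggg
Runx2: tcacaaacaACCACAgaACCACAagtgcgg
The third match in Runx2 begins 80 bases before its start. The matches are a description of the sequence, and the counts are per gene, so they do not show from which start the RNA of either gene came.

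Dlx5 (ENSMUSG00000029755; chromosome 6, from 6877805 to 6882085, minus strand) was the highest homeodomain factor. It had 7423, 2577, 11904 and 3486 counts, or 186, 102, 304 and 149 TPM in mice 1 to 4, with a mean of 186 ± 86.4 TPM (SD, n = 4). Mouse 3 was highest and mouse 2 lowest, and its coefficient of variation of 46.5% was above that of 85.9% of the 786 genes of like level. Dlx5 was above Sp7 in mouse 3, and with the longest transcript as length also in mouse 4.

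Dlx3 (ENSMUSG00000001510; chromosome 11, from 95120119 to 95125296, plus strand), known for its part in hair, tooth and bone matrix formation, was steadier. It had 6422, 2807, 5690 and 2372 counts, which are 140.0, 96.8, 126 and 88.0 TPM, or 113 ± 24.4 TPM (SD, n = 4). Its coefficient of variation was 21.7%, against a median of 30.0% over genes of like level. Dlx5 was higher than Dlx3 in 4 of 4 mice, and the mean difference was 0.63 ± 0.51 in log2(TPM + 1), with 2 of 16 sign assignments as extreme (adjusted p = 0.188, exact test). In mouse 2 the difference was 0.08. With the longest transcript as length, the mean difference was 1.29. In CPM it was 0.42 ± 0.50, with Dlx5 higher in 3 of 4 mice, and without mouse 4 it was 0.58 ± 0.61 in TPM, so that in both cases it was smaller than its SD.

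Dlx6 (ENSMUSG00000029754; chromosome 6, from 6863334 to 6868568, plus strand) lies 9236 bases from Dlx5 on the opposite strand, and both genes are known to share enhancers in the embryo. It was far lower than its neighbour, with 347, 17, 268 and 55 counts, or 8.30, 0.643, 6.53 and 2.24 TPM in mice 1 to 4 (4.43 ± 3.58 TPM, SD, n = 4). Mice 1 and 3 were high and mouse 2 was below 1 TPM, so that the highest mouse was 12.9 times the lowest. Dlx5 was higher than Dlx6 in 4 of 4 mice, and the difference of 5.30 ± 0.69 in log2(TPM + 1) was the largest of the 6 (2 of 16 sign assignments as extreme, adjusted p = 0.188 by the exact test). Its coefficient of variation of 80.9% was close to the median of 79.9% over genes of like level. Of the longest Dlx6 transcript, 267 bases are nearly identical to parts of 20 other genes, and reads that mapped to several places were not counted. The antisense RNA Dlx6os1, which shares no exonic bases with Dlx6, had 70, 0, 252 and 0 counts, and Dlx6os2, which shares 4.38% of them, had 1, 0, 26 and 0.

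**Figure D2:**
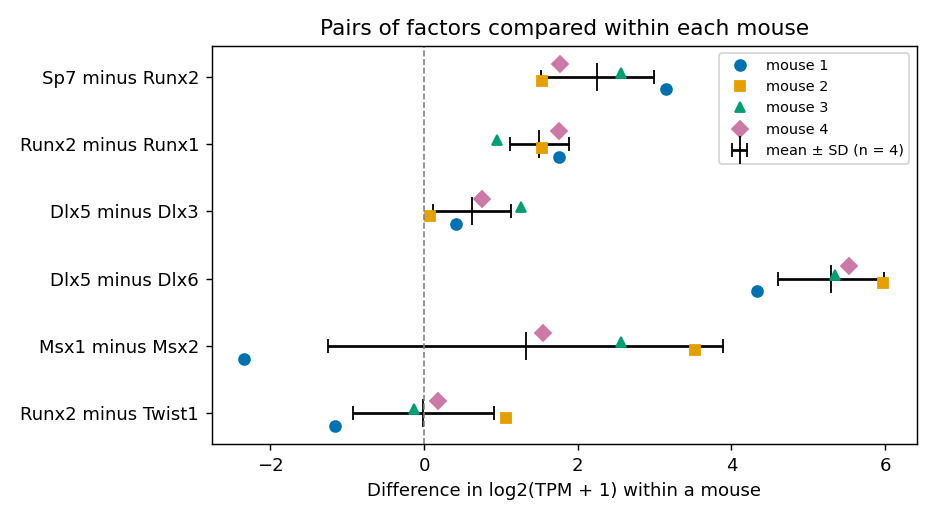
Difference in log2(TPM + 1) within each mouse for the 6 pairs compared, with a point for each mouse and the mean ± SD over 4 mice, and a dashed line at no difference. All mice lie on the right for Sp7 over Runx2, Runx2 over Runx1, Dlx5 over Dlx3 and Dlx5 over Dlx6, and on both sides for the pairs of Msx1 with Msx2 and Runx2 with Twist1.

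The MSX factors had the lowest medians of the 9 with merged exons as length and differed in the mice in which they were found. Msx1 (ENSMUSG00000048450; chromosome 5, from 37820485 to 37824583, minus strand) had 0, 362, 262 and 64 counts, or 0, 10.5, 4.90 and 2.00 TPM in mice 1 to 4. Msx2 (ENSMUSG00000021469; chromosome 13, from 53466884 to 53473074, minus strand) had 235 counts, or 4.07 TPM, in mouse 1 and 0, 0 and 1 count in mice 2, 3 and 4. Mouse 1 was thus the only library with Msx2 above 1 count and the only one without Msx1. At 3 counts the floor was 0.0551 TPM for Msx1 in mouse 1, and between 0.0529 and 0.0885 TPM for Msx2 in mice 2 to 4.

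Msx1 was higher than Msx2 in 3 of 4 mice, but the mean difference of 1.32 on the log2(TPM + 1) scale was smaller than its SD of 2.57 (adjusted p = 0.45, exact test). Without mouse 1 the difference was 2.54, and without mouse 2 it was 0.59. The mean of Msx1 was 4.35 ± 4.57 TPM (SD, n = 4) and fell to 2.30 TPM without mouse 2. The mean of Msx2, 1.03 TPM, rests on mouse 1 and was 0.00984 TPM without it. Coefficients of variation were 105% for Msx1 and 198% for Msx2, where genes of like level have medians of 80.3% and 138%. A stretch of 4.85% of the longest Msx2 transcript is near-identical to transcripts of 13 other genes.

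The start window of Msx2 holds 1 match to TAATTA, the core of many homeodomain binding sites, as do 5.30% of all windows, and none of the other 5 windows of these factors does. The sequence around it, at chr13:53472950-53472979 of GRCm38.p6 on the minus strand, begins 199 bases before the start of the transcript. It is printed 5′ to 3′ with the match in capitals, as the only match to these letters among the 6 windows.
Msx2: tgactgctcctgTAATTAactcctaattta

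Twist1 (ENSMUSG00000035799; chromosome 12, from 33957671 to 33959829, plus strand) came next to Runx2 in the order by median. It had 2434, 457, 1305 and 643 counts, or 85.0, 25.2, 46.4 and 38.2 TPM in mice 1 to 4, with a mean of 48.7 ± 25.7 TPM (SD, n = 4). Mouse 1 was highest and mouse 2 lowest, the reverse of Runx2. Runx2 was above Twist1 in mice 2 and 4 and below it in mice 1 and 3, and the mean difference was -0.01 ± 0.92 in log2(TPM + 1) (adjusted p = 1, exact test). With 4 mice this does not show that the levels were equal, and the differences ran from -1.16 in mouse 1 to 1.06 in mouse 2. With the longest transcript as length, the mean difference turned to 0.43 in favour of Runx2.

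Among neighbours in the order of the 9, the differences in log2(TPM + 1) within a mouse were larger than their SD for Dlx5 over Dlx3, for Dlx3 over Runx2 (1.32 ± 0.48), for Twist1 over Runx1 (1.51 ± 1.04) and for Runx1 over Dlx6 (1.85 ± 1.33), each in 4 of 4 mice. They were smaller than their SD for Sp7 over Dlx5 (0.31 ± 0.52), for Runx2 and Twist1, for Dlx6 over Msx1 (0.22 ± 2.46) and for Msx1 over Msx2. The order within these last 4 pairs is therefore not set apart from the spread between mice. With the longest transcript as length, Twist1 over Runx1 was 0.52 ± 1.04 and held in 3 of 4 mice, so that this pair was not set apart either. In CPM, which favour long genes, Twist1 was below Runx1 and Dlx3 below Runx2 in 3 of 4 mice each, with mean differences of -1.28 ± 1.05 and -0.42 ± 0.49.

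**Figure D3:**
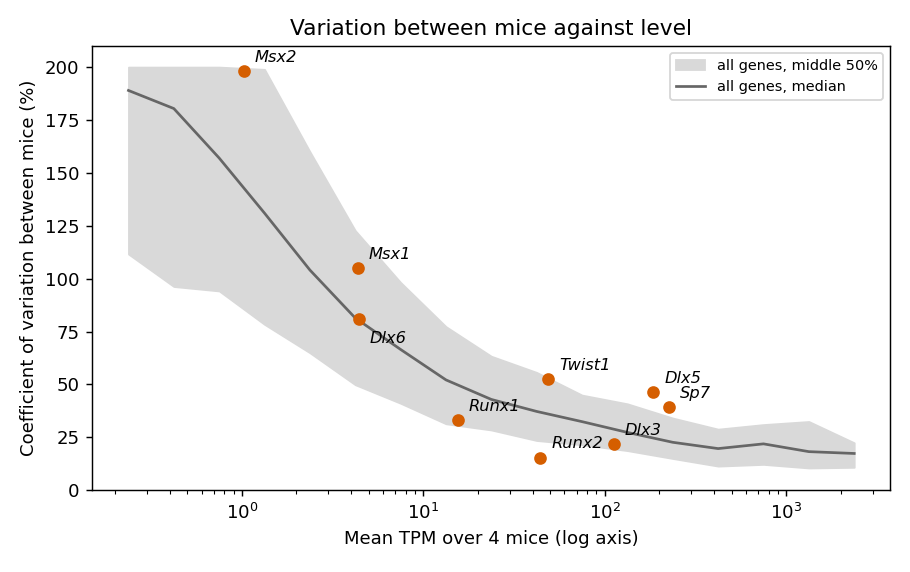
Coefficient of variation between the 4 mice, in percent, against mean TPM on a log axis, with the median (line) and the middle 50% (band) over all genes of a level and a point for each of the 9 factors. Runx2, at 15.5%, lies below the band, and Dlx5 and Sp7, at 46.5% and 39.5%, lie above it.

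Sp7, Dlx3, Dlx5, Dlx6 and Twist1 were each higher in mice 1 and 3 than in mice 2 and 4. This split was seen for 5 of the 8 factors with a median above 1 TPM, and for 27.6% of all 11948 such genes. It was not planned but taken from the values of these factors, so the count of 5 does not test whether they share a pattern. The same 5 factors showed it with every other gene length, denominator and scaling tried. This is a weak check, because a gene's own length cancels between mice and these settings only rescale each library as a whole. Mice 1 and 3 also had the deeper libraries and the higher blood markers, and the part of depth or of blood RNA in this split was not tested. Runx2, Runx1 and Msx1 did not follow it. Runx2 was highest and Sp7, Dlx3, Dlx5, Dlx6 and Twist1 were low in mouse 2, where the niche genes Cxcl12, Lepr, Foxc1, Ebf3 and Kitl summed to 4633 TPM against 1048 to 2369 TPM in the others. None of these 5 niche genes fell below 1 TPM in a mouse. Mouse 2 also led in the summed adipocyte markers Adipoq, Lpl, Cebpa and Pparg, with 962 TPM where the others had 199 to 439 TPM, and 3 of these 4 had a median above 1 TPM. The part of such cells in the values of the factors was not tested.

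**Figure D4:**
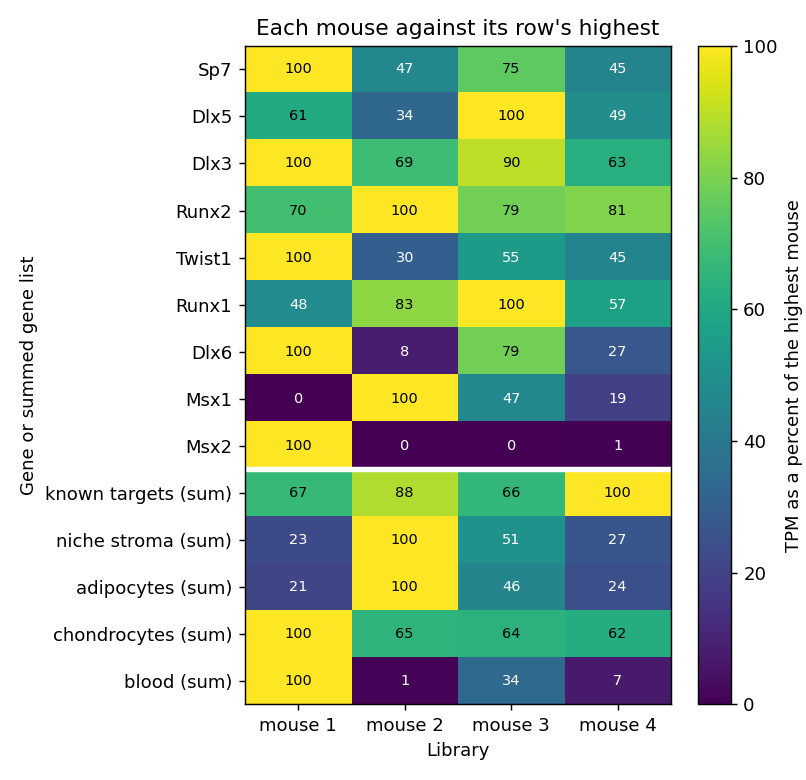
TPM of each factor, and summed TPM of 5 gene lists below the white line, in each mouse as a percent of the highest mouse of that row. Mouse 2 holds the highest Runx2, Msx1, niche and adipocyte values, while Sp7, Dlx3, Twist1, Dlx6 and Msx2 are highest in mouse 1, with the chondrocyte and blood markers.

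Of 10 matrix and mineral genes known as targets of RUNX2 and SP7, 9 were above 1 TPM in every mouse, and Sost, an osteocyte gene, had 0 counts in all 4. They did not share 1 pattern over the mice. Alpl, the phosphatase of mineralising cells, was 892, 550, 963 and 573 TPM in mice 1 to 4, with mice 1 and 3 high as for Sp7. Phex, an enzyme of phosphate control, was 56.2, 41.4, 21.3 and 49.7 TPM, with mouse 3 lowest. Mmp13, a collagenase, was 502, 1927, 2298 and 670 TPM, with mouse 1 lowest. The summed TPM of the 10 was highest in mouse 4, at 330109, where Sp7 was lowest, and most of it came from Bglap and Bglap2, near-identical osteocalcin genes whose counts are uncertain.

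The partners of the RUNX factors were uneven. Cbfb, the shared subunit that RUNX proteins need to bind DNA firmly, was 59.7, 56.4, 54.9 and 59.1 TPM in mice 1 to 4, or 57.5 ± 2.29 TPM (SD, n = 4), with a coefficient of variation of 3.97%. Of the 4 repressors listed with it, Hdac4, Tle1 and Tle3 had medians of 2.25, 1.66 and 6.17 TPM and Tle4 had 0.0170 TPM. In all, 4 of the 5 genes passed the median cutoff, and Cbfb and Tle3 were above 1 TPM in every mouse.

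All 7 partners and inhibitors of TWIST1 were above 1 TPM in every mouse. The E-proteins Tcf3, Tcf4 and Tcf12, with which TWIST1 pairs, had medians of 7.59, 14.8 and 7.09 TPM. The ID proteins bind E-proteins without binding DNA, and Id3 stood far above the rest at 2775 ± 484 TPM (SD, n = 4). Both Id1 and Id2 were highest in mouse 1, at 175 and 215 TPM, and their lowest values were 16.3 TPM in mouse 4 for Id1 and 48.9 TPM in mouse 2 for Id2.

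Among the family relatives, 2 of 6 had a median above 1 TPM and none was above it in every mouse. Runx3 had 2, 230, 1447 and 283 counts, or at most 16.7 TPM, and was lowest in mouse 1 as was Runx1. Dlx4 had 459, 0, 743 and 302 counts, with a median of 8.46 TPM, and was missing in mouse 2. Dlx1 and Msx3 had 0 counts in every library. Twist2 had 115 counts in mouse 2, where Twist1 was lowest, and 0 in the others, and Dlx2 had 15 counts in mouse 4 only.

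Other transcription factors of the skeletal lineages differed widely in level. Atf4, which works with RUNX2 in osteoblasts, was 214 ± 26.6 TPM (SD, n = 4). Maf and Prrx1 were 15.5 ± 8.11 and 15.0 ± 4.35 TPM. Sox9, the main factor of cartilage, was 23.3, 4.96, 0.154 and 0.140 TPM in mice 1 to 4. Zfp521, which restrains RUNX2, was 4.71, 0.563, 1.58 and 0.275 TPM. Both were highest in mouse 1, the mouse with Msx2. In that mouse 4 chondrocyte markers (Col11a2, Acan, Matn3 and Col9a1) reached a sum of 352 TPM, where the others had 219 to 229 TPM. Nearly all of the sum was Col11a2, and 2 of the 4 had a median above 1 TPM. Col9a1 was instead highest in mouse 3, at 12.2 TPM against 1.82 TPM in mouse 1. The part of chondrocytes in these values was not tested. The endothelial markers summed to at most 1.27 TPM, with Cdh5 and Kdr at 0 counts in every library.

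The 3 genes whose levels were most like those of Runx2, by the largest difference in log2(TPM + 1) over the 4 mice, were Cyp1b1, Copa and Gpr153, at 0.14, 0.16 and 0.17. For Sp7 they were Rab2a, Yif1b and Tfg, at 0.19, 0.23 and 0.25. For Runx1 they were Gm15720, Tbx15 and Nras, at 0.13, 0.17 and 0.18. With 4 mice these matches are given as a description.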

How the data were processed

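RNA-seq of sorted MSCs was measured in 4 mice, 1 library each. With STAR, the authors mapped paired reads to GRCm39, took those with a unique place on Ensembl exons with featureCounts (Subread 1.6.5 per the labels) and deposited raw counts without normalization, with no strand option given. Columns were joined to mice by sample code, and 0 columns were left unused. The 9 factors and all gene lists were chosen with earlier results of these data known.

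TPM was computed in Python 3.11.15 with pandas 2.3.3, using merged exon lengths of GENCODE M21 (GRCm38). Between 96.1% and 98.2% of the counts fell on the 52125 genes with a length, and 4855 genes were left out. Because the counts were made on another build, lengths may be off for some genes, and no coordinates were converted. Depth was 22738604 to 43545349 counts, so that 3 counts, the floor used here, equal 0.0689 to 0.132 CPM. Floors cover counting error only.

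Pairs of genes were compared within mice by exact sign-flip permutation on log2(TPM + 1), and the TPM code was tested on simulated data. The mice are separate animals. BLAST 2.17.0 was used to find near-identical copies (95% identity over 100 bases). Start-site sequences are from RefSeq. Genes other than the 9 were named from fixed lists of relatives, partners, targets and markers, from genes sharing exons or named as antisense to a factor, and as the 3 nearest in level to Runx2, Sp7 and Runx1. Alternatives were other lengths, denominators, TMM rescaling (edgeR 4.0.16), cutoffs, a pseudocount of 0.1, a minimum of 10 counts and leaving out each mouse. Values of some listed genes are not reported here.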

Additional observations from a re-analysis of the deposited data

Results flagged for a closer look

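In 5 of 51 values compared over the 4 mice, a single mouse was so far from the next that this gap, as a share of the whole range, passed Dixon's 95% critical value for 4 samples. Chance flags about 1 in 20 where values are normally distributed. A gene with counts in a single mouse and 0 in the others always gives a gap of 1, so that this share says nothing about Twist2 and Dlx2. It says little more about Msx2 (235, 0, 0 and 1 counts) and Tle4 (68, 0, 0 and 2), which were nearly absent outside mouse 1. Msx2 was 4.07 TPM in mouse 1 and at most 0.0295 TPM in the others, so that the gap was 0.993 of the range. Twist2 was 3.26 TPM in mouse 2 and 0 in the others (gap 1). Dlx2 was 0.508 TPM in mouse 4 and 0 in the others (gap 1). Tle4 was 0.678 TPM in mouse 1 and at most 0.0339 TPM in the others (gap 0.950). The chondrocyte markers summed to 352 TPM in mouse 1 and to 219 to 229 TPM in the others (gap 0.926). Nearly all of this sum was Col11a2, and Col9a1 was instead highest in mouse 3. Msx2 was the only 1 of the 9 factors among these.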

How the results depend on the processing

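The number of factors with a median above 1 TPM, 8, was between 6 and 9 under 13 alternatives, and the number above 1 TPM in every mouse, 6, was 6 or 7 under 12. Over 10 alternatives each, Sp7 stayed above Runx2 in the mean by 0.90 (in CPM) to 2.49, and Runx2 above Runx1 by 0.95 to 1.68, in log2. Dlx5 stayed above Dlx3 by 0.41 to 1.29 and above Dlx6 by 5.07 to 5.79. Msx1 stayed above Msx2 by 0.59 to 2.75, the last with a pseudocount of 0.1, but was below it in mouse 1. The mean difference of this pair was smaller than its SD except without mouse 1. The other denominators and TMM rescale all genes of a mouse alike and can hardly change a difference within a mouse. Where all 4 mice had the same sign, leaving out a mouse or a smaller pseudocount could not turn it. For those pairs, only the settings of gene length could. The difference of Runx2 from Twist1, -0.01, turned to 0.43 with the longest transcript as length and to 2.39 without a length correction, and lay between -0.37 and 0.37 when each mouse was left out, turning positive without mouse 1 and without mouse 3. Both settings raise Runx2 against Twist1 by construction, since its merged exons are longer than those of Twist1 and than its own longest transcript. Mice 1 and 3 were those with negative differences, -1.16 and -0.13, so that leaving out either raised the mean above -0.01. No paired analysis across groups was possible because all libraries form 1 group. Leaving the 10 highest genes out of the denominator raised the mean of Sp7 to 352 TPM and that of Runx2 to 70.6 TPM, and the longest transcript as length raised Runx1 to 24.8 TPM. The error of counting reads alone gives a coefficient of variation of 14.5% for Dlx6, where 80.9% was measured. Error from amplifying few cells is not in the 14.5%, and 1 library per mouse cannot tell it apart from differences between mice. With at least 10 counts required in every mouse, Msx1 and Msx2 gave no level.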
